A study of Mus musculus with 4 samples.

Results

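The sites described here are the binding sites of the glucocorticoid receptor (GR) that lay close to the end of a gene. A peak was counted when its centre lay within 5 kb of either end of the span of a protein-coding gene, which rests on position alone and uses no measured level. Of 2883 peaks listed after 12 h of corticosterone, 370 lay near a gene end (12.8%, 95% Wilson interval 11.7 to 14.1), and of 5638 peaks listed after 1 h, 812 did (14.4%, 13.5 to 15.3). The 2 lists together held 866 different near-end sites, of which 316 were in both lists. By the nearest end, 146 of the 12 h sites lay at a 5' end, where a gene starts, 136 at a 3' end and 88 at an end of a gene whose strand was not used here. The 1 h list held 342 sites at 5' ends, 277 at 3' ends and 193 at ends of genes without a strand.

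The receptor was pulled down by chromatin immunoprecipitation and the DNA was sequenced (ChIP-seq) in 33AP1C9 cells, derived from the mouse mammary line C127. The cells were treated with 600 nM corticosterone for 12 h, treated with the same dose for 1 h, or left untreated, with 1 library per condition. All of them, untreated cells included, carry a stably integrated reporter driven by the hormone-responsive MMTV viral promoter, express PP7 coat protein fused to GFP, and were kept in charcoal-stripped serum before treatment. A cocktail of anti-GR antibodies was used, and the labels give a different catalogue number for 1 of its antibodies in each ChIP sample. An input sample served as control for the untreated library: its label gives corticosterone for 1 h but the list called with it describes an untreated input, and the conflict cannot be settled from these sources.

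GR is a nuclear hormone receptor that stays largely in the cytoplasm until a glucocorticoid such as corticosterone binds it, after which it enters the nucleus and attaches to DNA. It often binds an imperfect palindrome made of a pair of hexamers around a short spacer, the glucocorticoid response element, and it also sits at sites occupied by other factors such as AP-1. Many known GR sites are enhancers far from any promoter, while some classical target genes such as Per1, a core circadian clock gene, and the metallothionein genes have response elements near their start.

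The libraries held 97749688 tags at 12 h, 90556119 at 1 h and 79203826 in untreated cells. Levels are normalised tags, the number of reads in a peak scaled to a library of 10000000 tags. The caller took the untreated ChIP library as its control for both treatments, so a listed peak stood at least 6-fold above it by construction and no height over untreated cells is a finding. With 1 library per condition there was no replicate check and no test across conditions. Intervals cover counting error only, and they compare these libraries, not the conditions. A lower tag count in such bulk chromatin cannot tell fewer cells with GR bound from less binding per cell.

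Few near-end peaks reached the proximal promoter itself, and those with a close match to the GR palindrome are shown here. They were chosen by the match alone, not by where it lay in the peak. Proximal promoters were taken as RefSeq windows of GRCm38.p6 running from 250 bases before to 50 after an annotated start, 21263 windows in all. The windows of 4 genes with a near-end peak held the full GR palindrome, AGAACA and TGTTCT with 3 free bases between them, with at most 2 mismatches among its 12 fixed bases. The palindrome reads the same on both strands. The 250 bases before each start follow, 5' to 3' on the strand of the gene, with the match in capitals.
Slc10a6 (chr5:103629404-103629653, minus strand): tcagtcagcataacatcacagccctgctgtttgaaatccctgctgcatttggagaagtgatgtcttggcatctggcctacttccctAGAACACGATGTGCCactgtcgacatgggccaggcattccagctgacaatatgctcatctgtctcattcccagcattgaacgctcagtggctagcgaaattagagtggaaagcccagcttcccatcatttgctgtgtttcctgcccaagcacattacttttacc
Tmem167b (chr3:108562467-108562716, minus strand): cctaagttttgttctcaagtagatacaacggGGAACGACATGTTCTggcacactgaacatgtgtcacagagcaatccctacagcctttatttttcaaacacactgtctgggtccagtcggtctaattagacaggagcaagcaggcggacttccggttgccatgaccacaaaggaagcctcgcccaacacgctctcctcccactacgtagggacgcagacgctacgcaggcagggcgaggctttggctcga
Mcrip2 (chr17:25868740-25868989, minus strand): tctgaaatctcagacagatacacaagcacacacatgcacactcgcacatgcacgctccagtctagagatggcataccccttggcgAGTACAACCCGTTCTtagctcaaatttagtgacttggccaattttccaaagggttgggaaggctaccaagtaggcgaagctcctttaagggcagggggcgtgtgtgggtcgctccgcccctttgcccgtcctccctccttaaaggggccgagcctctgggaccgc
Folh1 (chr7:86775865-86776114, minus strand): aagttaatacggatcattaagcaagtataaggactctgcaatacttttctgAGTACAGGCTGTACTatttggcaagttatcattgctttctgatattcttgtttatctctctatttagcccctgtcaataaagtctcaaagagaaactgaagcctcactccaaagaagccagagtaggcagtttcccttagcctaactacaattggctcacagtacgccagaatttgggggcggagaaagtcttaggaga
The window of Sgk1, a classical target encoding a glucocorticoid-regulated kinase, is given beside them since it holds the palindrome without a mismatch; this start lies inside the gene span and beyond 5 kb of either end, so its peak is not a near-end site.
Sgk1 (chr10:21993640-21993889, plus strand): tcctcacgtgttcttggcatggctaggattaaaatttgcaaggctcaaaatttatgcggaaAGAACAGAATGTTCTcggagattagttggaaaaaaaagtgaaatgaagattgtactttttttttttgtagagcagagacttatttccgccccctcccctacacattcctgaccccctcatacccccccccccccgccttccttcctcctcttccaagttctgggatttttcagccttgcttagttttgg

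Slc10a6, which encodes a transporter of sulphated steroids, had more tags than the other windows with a match. Its peak held 98.6 normalised tags at 12 h and 129.3 at 1 h, against 1.77 in the same window of untreated cells, and the palindrome AGAACACGATGTGCC was centred 13 bp from the peak centre at 12 h and 1 bp from it at 1 h. On the log2 scale, 12 h over 1 h came to -0.39 (95% interval -0.52 to -0.27). Tmem167b was listed only at 1 h, with 37.0 normalised tags against 4.17 in untreated cells, and its match lay 9 bp from the peak centre. Mcrip2 was likewise listed only at 1 h, at 10.0 normalised tags, and its match lay 12 bp from the centre. Folh1, which encodes a folate hydrolase, was listed only at 12 h, with 14.6 normalised tags, and its match also lay 12 bp from the centre. The matched bases were thus well inside each peak, whose full width was 302 bp at 12 h and 282 bp at 1 h.

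Across the lists, 7 near-end peaks at 12 h and 29 at 1 h overlapped a promoter window. A palindrome with at most 2 mismatches was in the window of 2 of those 7 peaks at 12 h. At 1 h this held for 3 of those 29 peaks (10.3%, 95% Wilson interval 3.58 to 26.4). It was in 346 of all 21263 windows (1.63%). A peak can overlap more than 1 window, and counted by window the near-end share at 1 h was 4 of 33 (12.1%). Among peaks beyond 5 kb of a gene end, 2 of 8 at 12 h and 3 of 7 at 1 h had such a palindrome in their window. These counts are small and their intervals wide. The shorter hexamer, AGAACA or its complement TGTTCT, is part of the palindrome and can overlap it. This hexamer was in 16.2% of all windows. Counted by peak and not by window, it was there for 1 of the 7 near-end peaks at 12 h and 4 of the 29 at 1 h. The highest near-end peak over a promoter window was at Tns2, which encodes the focal adhesion protein tensin 2, at a start annotated inside the gene span. It held 111 normalised tags at 12 h and 186.5 at 1 h. The best match to the palindrome in its window had 5 mismatches. Phyhd1 had 24.0 normalised tags at 12 h and 40.3 at 1 h. Map3k6, a MAP kinase kinase kinase, had 11.2 at 12 h and 37.3 at 1 h. Thus the promoter peaks with most tags included windows with and without a close match.

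Near-end sites were only slightly denser than sites in the genome as a whole. The stretches within 5 kb of a gene end made up 12.2% of the genome between the chromosome limits used. They held 1.13 peaks per Mb at 12 h (95% Poisson interval 1.02 to 1.25), against 1.07 in all, and 2.48 at 1 h (2.31 to 2.66), against 2.09 in all. Up to 100 kb the bins ran between 0.985 and 1.40 peaks per Mb at 12 h and between 2.35 and 2.88 at 1 h. Beyond 100 kb from any gene end it was 0.692 at 12 h and 1.28 at 1 h. At 12 h the density within 5 kb was below that between 10 and 25 kb, at 1.40 (1.28 to 1.51), and the intervals did not overlap. At 1 h the density between 10 and 25 kb was 2.69 (2.54 to 2.86), and the intervals overlapped. These differences were not tested.

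**Figure D1:**
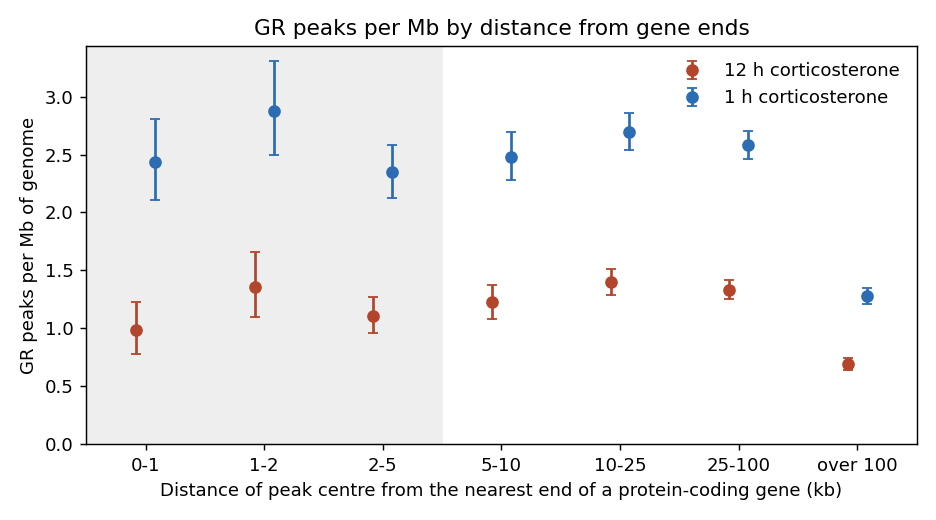
Peaks per Mb of genome (vertical axis, with 95% Poisson intervals) by distance of the peak centre from the nearest end of a protein-coding gene (horizontal axis, bins in kb), for the 12 h and the 1 h list. The bins within 5 kb sit between 0.985 and 1.35 at 12 h and between 2.35 and 2.88 at 1 h. All lie above the last bin, at 0.692 and 1.28. The highest 12 h bin is that between 10 and 25 kb, at 1.40.

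Closer to the start itself, the first kb inside the 5' end had the lowest density of the 1 kb bins around it at 12 h. It held 8 peaks, or 0.508 per Mb (0.219 to 1.00), against 14 peaks and 0.891 per Mb in the 1 kb just upstream. In the 1 h list the first kb inside held 27 peaks (1.72 per Mb), against 49 peaks just upstream (3.12 per Mb). Over the full 5 kb, the outer side of the 5' end had 1.32 peaks per Mb and the inner side 0.877 at 12 h, and 2.74 against 2.43 at 1 h. At the 3' end, the stretch past the gene had 1.23 peaks per Mb and the last 5 kb of the gene 0.881 at 12 h, and 2.37 against 1.94 at 1 h. In both lists, and at both kinds of end, the outer side was thus the denser one. The Poisson intervals of the outer and the inner side overlapped each time, and the difference was not tested. The lists share sites, so they are not independent of each other.

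**Figure D2:**
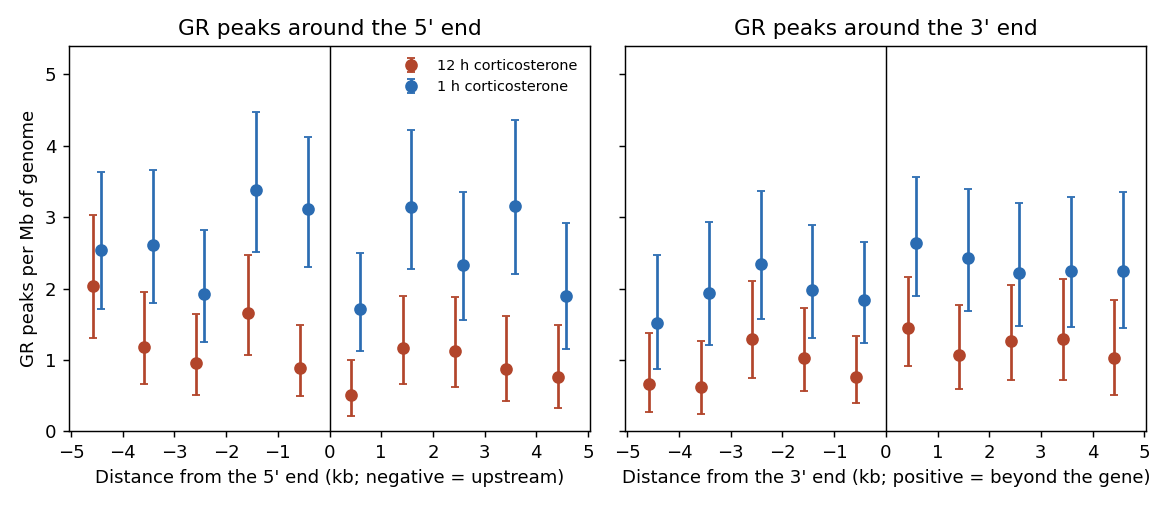
Peaks per Mb (vertical axis, with 95% Poisson intervals) in 1 kb bins around the 5' end and the 3' end of genes with a strand (horizontal axis, kb along the direction of the gene), for the 12 h and the 1 h list. The bin just inside the 5' end is low, at 0.508 at 12 h and 1.72 at 1 h, and no bin forms a sharp peak at either end.

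Near-end sites were about as high as other sites and had a similar focus ratio. Their median was 17.1 normalised tags at 12 h, against 18 in the rest of that list, and 18.6 at 1 h, against 18.3. The deposited focus ratio, a fraction the caller gives for each peak, had a median of 0.842 near gene ends and 0.838 elsewhere at 12 h. The medians at 1 h were 0.848 and 0.839. In the untreated library the near-end windows held a median of 11 raw tags for the 12 h list and 10.5 for the 1 h list, against 12 and 11 at the other sites. Of the near-end sites, 62 at 12 h and 149 at 1 h were near ends of 2 or more genes, at most 3, so a site cannot always be tied to 1 gene.

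The highest sites at 5' ends belonged to genes of varied function. At 12 h they were led by Tns2 and by Sys1, a Golgi trafficking factor, with 104.6 normalised tags at 12 h and 202.3 at 1 h (chromosome 2, 164455788 to 164456090 in the 12 h list, 991 bp upstream of the gene). Then came Cp, encoding the copper-carrying ferroxidase ceruloplasmin, with 100.8 at 12 h and 89.8 at 1 h, followed by Slc10a6. Per1, which classical work describes as a direct GR target, had 90.3 normalised tags at 12 h and 106.2 at 1 h at a site 1965 bp inside its 5' end. The cell cycle gene Ccnd3, encoding cyclin D3, had 81.1 at 12 h and 109.7 at 1 h. Fth1, the ferritin heavy chain that stores iron, had 78.3 at 12 h and 134.2 at 1 h. The surface protein gene Ly6c1 had 74.9 at 12 h and 126.7 at 1 h.

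Plin4, which encodes a coat protein of lipid droplets, had 74.0 normalised tags at 12 h and 227.6 at 1 h, the highest 5' value of the 1 h list (chromosome 17, 56108720 to 56109002 in that list, 1087 bp inside the gene). Hif3a, a hypoxia-inducible factor subunit, had 69.9 at 12 h and 45.7 at 1 h. Pin1rt1 had 67.5 at 12 h and 99.8 at 1 h, and Krt7, encoding a keratin of simple epithelia, 66.2 at 12 h and 110.5 at 1 h. In untreated cells the windows of these 12 sites held 0.505 to 4.42 normalised tags. All 12 were in both lists, and the interval of the 12 h over 1 h ratio lay below 0 on the log2 scale for 10 and above it for Cp (0.17, 0.03 to 0.30) and Hif3a (0.61, 0.43 to 0.79). Windows were wider at 12 h, and counting tags per base shifts every log2 ratio by -0.10, which brings the interval of Cp across 0.

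Among the 12 highest 5' sites of the 1 h list, 7 were also among the 12 highest at 12 h, and the other 5 held 33.2 to 46.2 normalised tags at 12 h, above the near-end upper quartile of 27.5. Isg20, an interferon-stimulated exonuclease, had 44.9 normalised tags at 12 h and 163.5 at 1 h. A second site in Per1, 4319 bp inside its 5' end, had 43.5 at 12 h and 128.5 at 1 h, a wider gap than at the first Per1 site. The small GTPase gene Ralb had 33.2 at 12 h and 117.4 at 1 h. Cdkn1a, encoding the cell cycle inhibitor p21, had 44.2 at 12 h and 112.4 at 1 h. Mt2, a metallothionein gene whose protein binds metals, had 46.2 at 12 h and 110.5 at 1 h. These 12 sites were all listed at both times, and for each the interval of the log2 ratio lay below 0. They were picked for a high score at 1 h, which favours a ratio below 0.

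At 3' ends the leading sites were higher than at 5' ends. The highest lay 2996 bp past 1700088E04Rik, with 173.3 normalised tags at 12 h and 263.4 at 1 h. Obp2a, an odorant-binding protein gene, had 160.5 at 12 h and 157.7 at 1 h at a site inside the gene, giving a log2 ratio of 0.03 (-0.08 to 0.13). Frmd8, an adaptor of the iRhom proteins, had 146.6 at 12 h and 239.4 at 1 h. Zc3h12c, of the Regnase family of RNases, had 130.5 at 12 h and 189.6 at 1 h. The kinase gene Mknk2 had 123.5 at 12 h and 163.4 at 1 h, and the olfactory receptor gene Olfr688 102.0 at 12 h and 145.0 at 1 h.

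Syk, a tyrosine kinase, had 93.8 normalised tags at 12 h and 200.6 at 1 h. Arrdc2, an arrestin-domain gene known to respond to glucocorticoids, had 90.3 at 12 h and 213.5 at 1 h at a site past its 3' end (chromosome 8, 70833566 to 70833868 in the 12 h list). M1ap, a meiosis gene, was among the 8 highest only at 1 h, with 68.5 at 12 h and 207.2 at 1 h. The other 7 of the 8 led in both lists. Of the 8 leading at 12 h, the interval of the log2 ratio lay below 0 for 7, all but Obp2a, and untreated cells held 0.631 to 3.66 normalised tags in those windows.

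Most near-end sites of the 12 h list were already listed at 1 h, while fewer of the 1 h sites were listed at 12 h. Of the 370 near-end 12 h peaks, 85.4% overlapped a 1 h peak (81.4 to 88.6), against 84.4% of the rest and 84.5% of the whole 12 h list. Of the 812 near-end 1 h peaks, 38.9% overlapped a 12 h peak (35.6 to 42.3), against 43.9% of the rest (42.5 to 45.3) and 43.2% of the whole 1 h list. A peak missing from a list need not lack binding, since it may have stayed under a minimum of the caller. When the 1 h list was split by score into 5 equal groups, the near-end share was the lower one in each, at 11.6% against 16.3% in the lowest group and 84.7% against 86.4% in the highest, although the intervals of near-end sites and the rest overlapped in all 5. By genes, 425 of 21887 protein-coding genes (1.94%) had a peak near an end at 12 h and 911 (4.16%) at 1 h. Of these, 378 had one at both times.

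At the 316 near-end sites in both lists, the 12 h library mostly held fewer tags. The sites averaged 27.8 normalised tags at 12 h and 46.5 at 1 h, and summed to 8790 at 12 h and 14702 at 1 h. The median log2 ratio of 12 h over 1 h was -0.70 (a ratio of 0.614, quartiles -1.14 and -0.16), against -0.47 at the 2120 other shared sites. The ratio was below 0 at 265 sites and above it at 51. Its interval lay below 0 at 226, above 0 at 28 and spanned 0 at 62. A ratio at least 2-fold lower at 12 h was found at 97 of the 316 (30.7%), against 24.5% of all 2436 shared sites, and one at least 2-fold higher at 3 (0.949%), against 1.44% of all. Counting tags per base of window moved the near-end median to -0.80 and the number of sites at least 2-fold higher to 1.

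**Figure D3:**
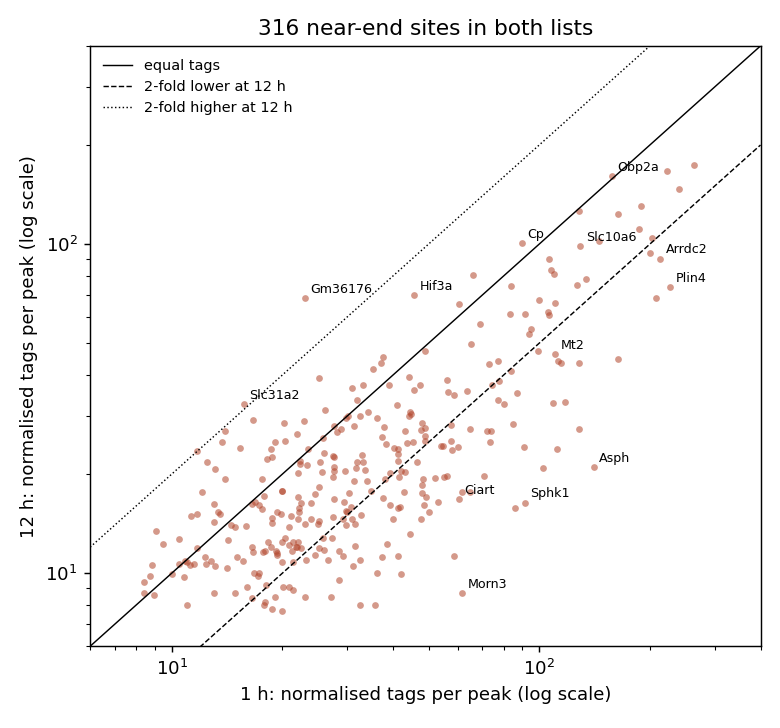
Each point is a near-end site in both lists, with its normalised tags at both times on log axes (12 h vertical, 1 h horizontal), the line of equal tags and lines 2-fold below and above it. Most of the 316 points lie on the side of more tags at 1 h, and 97 are at least 2-fold lower at 12 h.

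The lower ratio near gene ends was seen at each level of tags. Among shared sites with a mean under 20 normalised tags, the median log2 ratio was -0.47 near gene ends and -0.28 elsewhere. Between 20 and 40 tags it was -0.80 near gene ends and -0.57 elsewhere. At 40 tags or more it was -0.81 near gene ends and -0.65 elsewhere. By distance the median stood at -0.80 within 1 kb of an end, at -0.68 between 1 and 2 kb and between 2 and 5 kb, at -0.55 between 5 and 10 kb, at -0.50 between 10 and 25 kb and between 25 and 100 kb, and at -0.37 beyond 100 kb. The share at least 2-fold lower was 39.4% within 1 kb and 21.7% beyond 100 kb. The median thus came closer to 0 with distance, by unequal steps, and the steps were not tested. It was a difference between 1 pair of libraries, and no replicate library was used to check it.

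**Figure D4:**
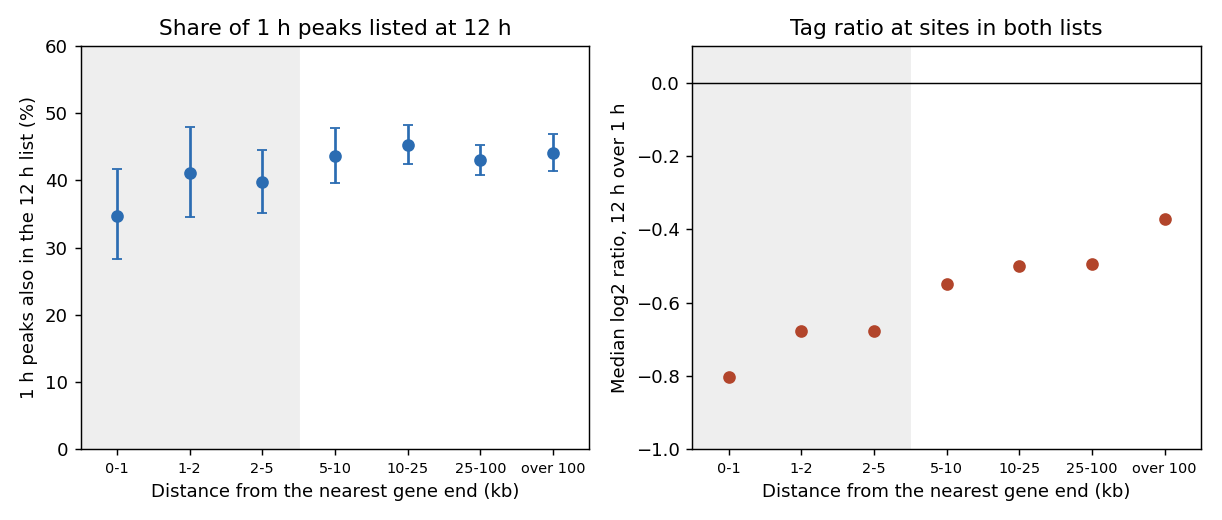
By distance from the nearest gene end (horizontal axes, bins in kb; shaded within 5 kb), the left panel gives the share of 1 h peaks also listed at 12 h (%, with 95% Wilson intervals) and the right panel the median log2 ratio of 12 h over 1 h at shared sites. The share is 34.7% in the bin closest to a gene end and 44.1% beyond 100 kb. The median log2 ratio is -0.80 in the bin closest to a gene end and -0.37 beyond 100 kb.

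The same measure is given for each kind of end, with no test of the differences. At the 126 shared sites nearest a 5' end the median log2 ratio was -0.76, and 43 were at least 2-fold lower at 12 h. At the 117 nearest a 3' end it was -0.56, with 28 at least 2-fold lower, and at the 73 near genes without a strand it was -0.74, with 26. Within 5' sites, the 51 inside the gene had a median of -0.98, and 25 of them were at least 2-fold lower, against -0.70 and 18 for the 75 upstream of the gene. At 3' ends the sites inside the gene had a median of -0.66 and those past it -0.53. Sites inside the first 5 kb of a gene were therefore the group with the lowest ratio in this pair of libraries.

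Single sites spread widely around these medians. Among the 245 shared near-end sites with at least 20 normalised tags at either time, the lowest ratio was at Morn3, with 8.70 normalised tags at 12 h against 61.6 at 1 h (log2 ratio -2.83). Asph, an aspartyl hydroxylase gene, had 21.0 at 12 h and 140.6 at 1 h (-2.74). Sphk1, the kinase that makes sphingosine 1-phosphate, had 16.4 at 12 h and 91.3 at 1 h. The potassium channel subunit gene Kcne4 had 15.8 at 12 h and 85.9 at 1 h, and the zinc finger gene Zfp410 had 11.3 at 12 h and 58.6 at 1 h. These 5 sites were picked for their low ratio, so many tags at 1 h beside few at 12 h follow from the choice. At 12 h Asph stood above the near-end median of 17.1 normalised tags, and the others stood below it.

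In the other direction, Gm36176 had 68.5 normalised tags at 12 h against 23.1 at 1 h (log2 ratio 1.57). Slc31a2, of the copper transporter family, had 32.6 at 12 h and 15.7 at 1 h (1.06). Mcrip1 had 23.5 at 12 h and 11.7 at 1 h (1.01). Syde2 had 25 at 12 h and 13.7 at 1 h. Of these 4, only the site at Gm36176 was at least 2-fold higher when tags were counted per base of window.

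Sites in 1 list alone were mostly low. The 54 near-end peaks found only at 12 h had a median of 12.2 normalised tags, and in 50 of them (92.6%) the fold over the untreated library or over the surrounding 10 kb was under 9, close to the minimum of 6, against 81.9% of the other peaks found only at 12 h and 39.2% of the near-end 12 h peaks in both lists. The 496 found only at 1 h had a median of 14.7, and 54.2% were as close to a minimum, against 56.5% of the other peaks found only at 1 h. The highest found only at 12 h was at St6galnac1, a sialyltransferase gene, with 68.7 normalised tags; its window held 62 raw tags in untreated cells, the most of any near-end site, and 47.0 normalised tags would have been needed there at 1 h. H6pd had 36.4 at 12 h, the acute phase gene Orm3 27.6, Grifin 25.7 and a site past the 3' end of Gas6 22.9. The same end of H6pd was not without a 1 h peak. A neighbouring H6pd site was in both lists, with 23.9 normalised tags at 12 h and 111.6 at 1 h. At 1 h alone, Layn had 70.9 normalised tags, the chemokine gene Ccl17 66.0, Mthfsd 63.6, Shisal1 62.7 and Lrrk1 61.0. These leading single listings stood above the near-end median of their list, 17.1 at 12 h and 18.6 at 1 h. They were picked as the highest scoring, so their height follows from the choice.

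Genes known to respond to glucocorticoids had near-end peaks more often than protein-coding genes at large. Of 40 such genes, 11 had one at 12 h (27.5%, against 1.94% of all genes) and 18 at 1 h (45.0%, against 4.16%). All 11 were among the 18. The list was drawn up with earlier results of these data known, so its share is a description. The 12 sites of these genes in both lists had a median log2 ratio of -1.17, against -0.70 for all 316 shared near-end sites. The interval lay below 0 at 10 of them, above 0 at Hif3a, and spanned 0 at Glul, which encodes glutamine synthetase and had 37.2 normalised tags at 12 h against 39.1 at 1 h (-0.07, -0.29 to 0.15). At least 2-fold lower at 12 h were 7 of the 12.

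Beside Per1, Arrdc2, Mt2 and Cdkn1a, they included Zfp36, whose protein promotes decay of cytokine mRNAs, with 17.5 normalised tags at 12 h and 48.1 at 1 h. Mt1, the neighbour of Mt2, had 12.8 at 12 h and 27.3 at 1 h at its own start (chromosome 8, 94178832 to 94179134 in the 12 h list). Errfi1, an inhibitor of EGF receptor signalling, had 14.6 at 12 h and 29.2 at 1 h past its 3' end. Tsc22d3, encoding the glucocorticoid-induced leucine zipper GILZ, had 11.4 at 12 h and 19.3 at 1 h, and the transcription factor gene Zbtb16 had 7.77 at 12 h and 18.8 at 1 h. The 8 sites listed only at 1 h held 8.61 to 25.5 normalised tags. They lay at Suox, Lcn2, Ddit4, Angptl4, Errfi1, Nfkbia, Dusp1 and Rgs2. The listed target genes, chosen with earlier results of these data known, account for 12 of the 370 near-end sites at 12 h and 20 of the 812 at 1 h.

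**Figure D5:**
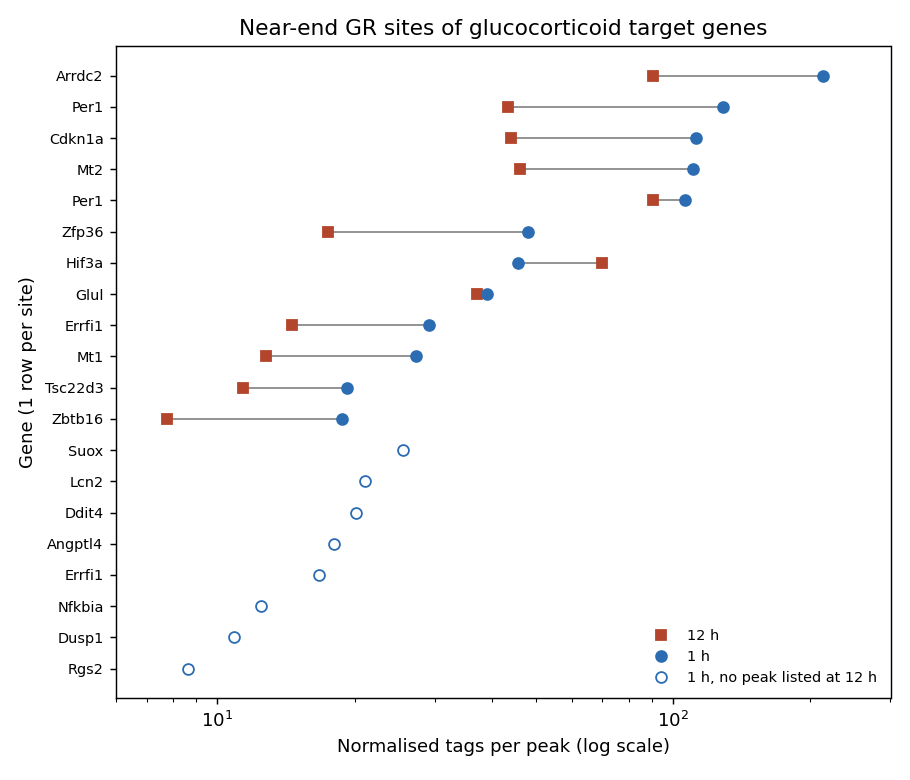
Normalised tags (horizontal log axis) at near-end sites of glucocorticoid-responsive genes at 12 h (squares) and at 1 h (circles, open where no 12 h peak was listed), 1 row per site. Hif3a is higher at 12 h (69.9 against 45.7), Glul is level (37.2 against 39.1), and the other shared sites are lower at 12 h.

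Other gene groups had between 0 and 3 genes with a near-end peak at 12 h and between 0 and 4 at 1 h. Of the genes named below, Per1, Errfi1, Dusp1 and Nfkbia are also among the glucocorticoid-responsive genes above, so their peaks are counted in both places. Of 19 circadian clock genes 3 had one at each time (15.8%, against 1.94% of all genes at 12 h and 4.16% at 1 h), namely Per1, Nfil3 with 20.9 normalised tags at 12 h and 31.7 at 1 h, and Ciart with 16.8 at 12 h and 60.4 at 1 h. Of 18 genes of MAP kinase and growth signal feedback, Errfi1 had one at both times and Dusp1, a MAP kinase phosphatase, only at 1 h (10.9 normalised tags). Of 14 AP-1 and immediate early genes none had one at 12 h and 3 had one at 1 h (21.4%). These were Junb at 2 sites (19.4 and 18.9 normalised tags), Maff (31.6) and Ier2 (11.7). No near-end peak was listed for any of 14 Kruppel-like factors or 15 immune cell markers at either time.

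Among 20 inflammatory genes 1 had a near-end peak at 12 h (5.0%) and 4 had one at 1 h (20%). Csf1, a macrophage growth factor, had 27.6 normalised tags at 12 h and 48.8 at 1 h at a site inside its 3' end, and 54.0 at 1 h alone at a site past it. The chemokine genes Cxcl5 and Cxcl1 had 26.0 and 9.61 at 1 h alone, and Nfkbia, encoding an inhibitor of NF-kB, 12.5. Of 21 mammary epithelial genes 2 had one at each time (9.52%): Krt7, and Krt8, another keratin of simple epithelia, with 27.5 at 12 h against 28.9 at 1 h (log2 ratio -0.07, -0.32 to 0.18). Of 16 housekeeping genes none had a near-end peak at 12 h. Shares above those of all genes thus rest on 1 to 4 genes in each of these lists, and no test was made of them.

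A few genes had separate peaks at both of their ends, each peak given to the end of that gene it was nearer to. There were 3 such genes at 12 h and 28 at 1 h. Obp2a had 43.2 normalised tags at 12 h and 73.2 at 1 h at its 5' end, beside the higher 3' site described above. Gas6, which encodes a ligand of the TAM receptor kinases, had 3 near-end sites at 12 h. The site near its 5' end held 55.3 normalised tags at 12 h and 94.9 at 1 h, but lies closer to the 3' end of the neighbouring gene Tmem255b and is counted there as a 3' site. Past the 3' end of Gas6 lay a site with 30.5 at 12 h and 44.9 at 1 h, and another with 22.9 at 12 h alone. Orm1, an acute phase gene without a strand here, had 37.4 normalised tags at 12 h and 47.4 at 1 h at one end, and 38.4 at 12 h and 77.5 at 1 h at the other. At 1 h alone, peaks at both ends were found for Fes, a tyrosine kinase gene, with 9.83 normalised tags at its 5' end and 106.6 at its 3' end, and for Lzts2, with 12.5 at its 5' end and 83.8 at its 3' end. In Obp2a, Fes and Lzts2 the 3' site was the higher, while in Gas6 the site near the 5' end was.

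The limit of 5 kb divides sites that lie side by side. At 12 h the last sites inside it were at Wee1, a kinase that restrains entry into mitosis (4960 bp, 166.5 normalised tags), Creld2 (4953 bp, 33.6) and the chemokine gene Cx3cl1 (4947 bp, 11.9). The first outside it were at Fkbp5, a co-chaperone of GR (5049 bp, 11.0), Angpt4 (5103 bp, 18) and Sgk1 (5113 bp, 17.0). At 1 h the last inside were at Gna14 (4999 bp, 9.50), Bcl9l (4982 bp, 13.6) and Dgki (4959 bp, 8.28), and the first outside at Lrrc8a (5006 bp, 23.9), Fkbp5 (5010 bp, 10.3) and Bpifc (5021 bp, 19.2). Except for Wee1, these neighbours on either side were of ordinary height.

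Near-end windows with the most tags before treatment were at Ly6f, Ly6c1, Fes and Susd1 beside St6galnac1 at 12 h, with 37, 35, 34 and 31 raw untreated tags. In the 1 h list they were at Ly6f, Fes, Susd1 at 2 sites and Tmem167b, with 33 to 37. These are upper values, since the median near-end window held 11 at 12 h and 10.5 at 1 h.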

How the data were processed

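GR ChIP-seq was measured in 12 h, 1 h and untreated cells, 1 library each. Per the submitters' processing notes, bcl2fastq 2.17, Bowtie2 2.2.6 and HOMER were used on mm10. Per the file headers, the authors called peaks per library with HOMER findPeaks in factor style, at a false discovery rate of 0.001, with 6-fold minimums over the control and over the local 10 kb and a Poisson p-value limit of 0.0001. The p-value deposited per peak was not used further. Treated lists were called against the untreated library, and the untreated list against the input. The tag threshold of the treated lists was 75. Peak width was fixed, at 302 bp at 12 h and 282 bp at 1 h.

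The signal used is the deposited normalised tag count per 10000000 tags. Counts of raw tags were recovered from the tag columns the authors had deposited scaled to the untreated library (100% whole within 0.1 of a tag); control tags are listed at no less than 0.5. The score, used here to rank and to split lists, the fold over control (a ratio) and the focus ratio (a fraction) are the authors' deposited values from the caller.

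Gene spans came from a RefSeq table of GRCm38.p6, the assembly of mm10, and strand from the RefSeq promoter table, which covered 17492 of 21887 protein-coding genes (79.9%). Distances run from peak centre to the nearest end. 1 peak of the 1 h list on an unplaced scaffold had no distance. Genome length by distance was taken on a 100 bp grid. Peaks of both lists that overlapped by 1 bp or more were joined. Wilson 95% intervals were used for shares and exact Poisson ones for densities, and tag ratios have exact Clopper-Pearson 95% intervals from raw tags. The reads carry no molecular identifiers and are not independent molecules, so intervals cover counting error only. Python 3.11.15, pandas 2.3.3, numpy 2.4.6, SciPy 1.17.1 and matplotlib 3.10.9 were used, and the steps were tested on simulated data.

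Sites named are the 12 highest scoring at 5' ends and 8 at 3' ends in each list, the 5 highest in 1 list alone, the 5 lowest and 5 highest ratios among sites with at least 20 normalised tags, gene-list members, the highest promoter peaks, the 3 on either side of the limit, genes with 3 or more sites or sites at both ends, and the 5 with most untreated tags. Some sites chosen this way are not reported here. The 9 gene lists held 177 members, all matched. The members and lists were chosen with earlier results of these data known. Alternatives covered the distance limit, the gene types, the caller's minimums, the overlap rule, the fold limit and tags per base.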

Additional observations from a re-analysis of the deposited data

Results flagged for a closer look

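The untreated list, which no comparison of the lists uses, held a single peak, and it too lay near a gene end. It was 148 bp upstream of the 5' end of Pgk1, a gene of glycolysis (chromosome X, 106186881 to 106187023 in mm10), and its 317 raw tags (40 normalised) stood 44.2-fold above the input. Of 378 candidate peaks in that library, 377 had been removed by the comparison with input, per the file header. Neither treated list had a near-end peak at Pgk1, where 240.1 normalised tags would have been needed to reach the caller's fold over the untreated library.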

How the results depend on the processing

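Of 56 alternative values, 26 stayed within 1.5 times the reported count or within its interval, and 30 moved further. Only the median log2 ratio could have changed sign, and it stayed negative in each of its alternatives. Limits of 1, 2 and 10 kb gave 78, 173 and 645 near-end sites at 12 h (2.71%, 6.0% and 22.4% of the list) and 193, 395 and 1369 at 1 h (3.42%, 7.01% and 24.3%). Counting all RefSeq gene types gave 791 at 12 h (27.4%) and 1630 at 1 h (28.9%). With 2 times each minimum of the caller there were 119 sites at 12 h and 305 at 1 h, with medians of 33.6 and 35.4 normalised tags; 98.3% of these 12 h sites were listed at 1 h, and 72.1% of these 1 h sites at 12 h. At a limit of 1 kb, 34.7% of the 1 h sites were listed at 12 h, and the 12 h median was 15.75 normalised tags. The median log2 ratio of 12 h over 1 h was -0.80 at 1 kb, -0.80 with tags per base and -0.81 with at least 20 tags. With a fold limit of 1.5, 173 shared sites were lower at 12 h and 11 higher, and with tags per base 1 was at least 2-fold higher. The other shared sites had a median log2 ratio between -0.49 and -0.46 at limits of 1, 2, 5 and 10 kb, above the near-end median at each. No paired analysis was possible because each condition has 1 library, so no library could be left out either. Limits are the single library per condition, the shared untreated control, strand for 79.9% of genes, and gene spans whose ends are the outermost annotated ones. At the median near-end window, the 10.5 to 11 raw untreated tags gave only 1 of the caller's limits on listing. Others were its tag threshold of 75 and the 6-fold minimum over the local 10 kb.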
